A study of Mus musculus with 12 samples.

Results

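The mouse mitochondrial genome carries 37 genes, and all 37 had an entry in the count table of this series. They were taken as every entry on chromosome MT, whatever its biotype, and make up 37 of the 54532 genes listed: 13 protein-coding genes, 2 ribosomal RNA (rRNA) genes and 22 transfer RNA (tRNA) genes. The cells were ATDC5, a wild-type mouse line that the labels give as cartilage progenitor cells and that is used as a culture model of chondrocyte formation. RNA was sequenced from 12 libraries, 4 biological replicates for each temperature, 37 °C, 40 °C and 44 °C. Each exposure lasted 10 min and followed growth of all groups in high-sugar DMEM with serum at 37 °C. The series asked how temperature affects chondrocyte growth. The time from the end of the exposure to RNA extraction is not stated, and nothing beyond the word biological says how separate the replicate cultures were. P-values therefore measure the spread between these libraries, which may be partly technical.

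Mitochondrial DNA is copied into long transcripts from both strands, and most of the genome appears in both. In many places a tRNA gene separates its neighbours, and cutting the tRNAs out releases the mRNAs and rRNAs between them. The mRNAs encode core subunits of respiratory complexes I, III and IV and of the ATP synthase. The rRNAs and tRNAs serve the mitochondrial ribosome, while every protein that copies, cuts, modifies and translates these RNAs is encoded in the nucleus. Pieces of mitochondrial DNA have also been copied into nuclear chromosomes, where they are annotated as pseudogenes.

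The sequences of the tRNA genes called below and of the copied stretches show what the counts can and cannot tell apart. Sequences are from the GENCODE M21 transcripts on GRCm38 (mm10), written 5′ to 3′ as DNA, and the coordinates and lengths of all 37 genes in the deposited table matched that annotation. The 4 tRNA genes called at 44 °C are shown whole, with the anticodon in capitals. They lie at chrMT:5192-5257 (mt-Tc, cysteine), chrMT:15356-15422 (mt-Tp, proline) and chrMT:5260-5326 (mt-Ty, tyrosine) on the minus strand, and at chrMT:11546-11612 (mt-Th, histidine) on the plus strand.
mt-Tc: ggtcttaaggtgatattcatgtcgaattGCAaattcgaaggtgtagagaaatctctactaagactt
mt-Tp: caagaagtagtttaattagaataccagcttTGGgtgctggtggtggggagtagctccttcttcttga
mt-Th: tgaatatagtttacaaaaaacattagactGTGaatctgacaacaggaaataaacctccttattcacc
mt-Ty: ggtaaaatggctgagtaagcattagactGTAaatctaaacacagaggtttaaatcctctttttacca

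A stretch of chromosome 1 (chr1:24611535-24616188, 4654 bases, minus strand) holds 7 annotated pseudogenes that copy the mitochondrial stretch chrMT:6390-11042 (4653 bases). The copies of mt-Co2 (Gm28661), mt-Atp6 (Gm10925), mt-Co3 (Gm28437), mt-Nd4l (Gm10222) and the first 876 bases of mt-Nd4 (Gm28439) had no base different from the mitochondrial gene over the aligned length. The copy of mt-Nd3 (Gm28438) differed at 1 base of 345, T3C, and the copy of the last 483 bases of mt-Co1 (Gm29216) at 1 base, A1066T, both counted from 1 at the 5′ end of the mitochondrial gene. These 2 positions are shown in capitals within 60-base stretches at chrMT:9459-9518 and chr1:24613060-24613119, and at chrMT:6390-6449 and chr1:24616129-24616188. The mitochondrial stretches are on the plus strand and the nuclear ones on the minus strand.
mt-Nd3: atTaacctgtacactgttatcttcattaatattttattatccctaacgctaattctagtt
Gm28438: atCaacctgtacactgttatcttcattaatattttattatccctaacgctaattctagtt
mt-Co1: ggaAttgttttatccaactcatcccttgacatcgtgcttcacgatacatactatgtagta
Gm29216: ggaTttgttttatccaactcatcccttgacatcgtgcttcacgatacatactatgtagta
A read that lies within one of these aligned parts and misses those 2 bases is the same from either genome. The stretches between the annotated copies, with mt-Atp8 and the 5 tRNA genes there, were not compared, and the 2 spans differ in length by 1 base. How the counting treated reads with more than 1 possible source is not stated. Other nuclear copies share sequence as well. Of all 50-base windows, 827 of 1329 in mt-Nd4 (with Gm28439) and 765 of 1496 in mt-Co1 (with Gm29216, Gm11512 and Gm13340) occur in the transcript of another annotated gene. The same holds for 81 of 989 in mt-Nd2, 135 of 1775 in mt-Nd5 and 16 of 1533 in mt-Rnr2. It holds for none of those in mt-Rnr1, mt-Nd1, mt-Nd6, mt-Cytb or the 4 tRNA genes above.

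Library totals lay between 16269026 and 19506705 counts, and values for single genes are CPM (counts scaled to a common library total) after TMM scaling (trimmed mean of M values). Of 14424 genes with enough counts to test, 13.7% were called for 44 °C against 37 °C at an adjusted p under 0.05. All adjusted p-values are from edgeR's quasi-likelihood test with Benjamini-Hochberg adjustment over those 14424 genes. Of the cartilage progenitor markers, Prrx1 (262, against 347 CPM), Runx2 (60.4, against 62.8 CPM) and Sox9 (48.2, against 54.2 CPM) were expressed at 44 °C and at 37 °C. The matrix genes Col2a1, Acan and Col1a1 averaged between 0.993 and 2.13 CPM over the 3 groups, and Sox6 averaged 0.0445 CPM at 37 °C. Sums over marker lists are in CPM without TMM scaling, unlike the values of single genes. The summed level of the 8 markers was 329 to 445 CPM at 44 °C and 450.5 to 524 CPM at 37 °C, and Prrx1 fell (log2 fold change −0.40, adjusted p = 0.0028). Smooth muscle markers summed to 70.2 to 74.6 CPM at 44 °C and 112 to 128 CPM at 37 °C, almost all from Acta2, the one of the 5 that was tested, which fell (−0.76, adjusted p = 7.66e-05). Endothelial markers summed to 4.03 to 5.97 CPM at 44 °C and 2.19 to 3.30 CPM at 37 °C, with Pecam1 and Cdh5 called higher of 3 tested and Emcn at 0 at 37 °C. Macrophage markers summed to 18.3 to 31.3 CPM at 44 °C and 26.5 to 40.6 CPM at 37 °C, nearly all Cd68, with Adgre1 at 0 in both groups. Epithelial markers summed to 96.2 to 122 CPM at 44 °C and 83.7 to 106 CPM at 37 °C, nearly all Krt18, with Krt5 at 0. The part of these shifts in the results below was not tested.

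Mitochondrially encoded genes took 1.79% to 2.16% of the counts at 37 °C, 1.74% to 2.12% at 40 °C and 1.77% to 1.97% at 44 °C, so the groups overlapped. The libraries were made from poly-T captured RNA, and the protein-coding genes held 94.7% of the mitochondrial counts, the rRNAs 4.63% and the tRNAs 0.664%. One gene, mt-Co1, held 37.7%, followed by mt-Cytb with 14.9%, mt-Nd5 with 12.0%, mt-Nd1 with 11.3% and mt-Nd2 with 9.38%. In bulk RNA, fewer mitochondria, less RNA in each and fewer cells that are rich in them cannot be told apart.

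The levels of protein-coding genes per length fell into separate ranges along the genome. The 5 protein-coding genes outside the stretch copied to chromosome 1 averaged 1027 to 2543 CPM per kb, whereas the 6 inside it averaged 1.03 to 58.4 CPM per kb. The 2 that cross an edge of the stretch, mt-Co1 (4733 CPM per kb) and mt-Nd4 (874 CPM per kb), had 1062 and 502 bases outside it. The 2 rRNA genes lay at 334 and 365 CPM per kb, and the 17 tRNA genes outside the stretch lay between 0 and 559 CPM per kb. All 5 tRNA genes inside it had at most 2 counts in any library. Levels of genes inside the stretch are given below only as what the table lists, since most of the reads of mt-Co2, mt-Atp6, mt-Co3, mt-Nd3 and mt-Nd4l cannot be told apart from those of their copies, and the copies of mt-Atp8 and of the tRNA genes there were not compared.

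**Figure D1:**
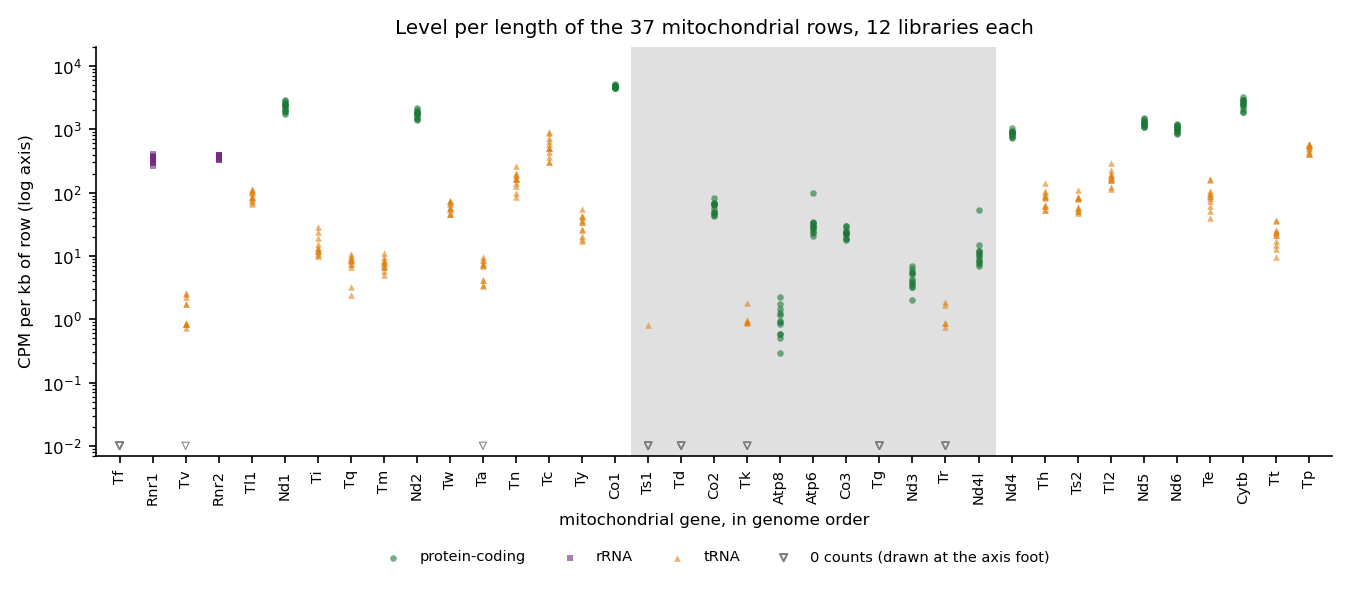
Level of each mitochondrial gene in each of the 12 libraries, in CPM per kb of gene length on a log axis, with genes in genome order and the marker shape giving the biotype. The shaded block marks the 11 genes inside the stretch copied to chromosome 1, where protein-coding genes averaged 1.03 to 58.4 CPM per kb, against 1027 to 2543 CPM per kb for those wholly outside; open triangles mark libraries with 0 counts.

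The nuclear copies had as many counts as, or more than, the matching mitochondrial entries for several genes. The copy of mt-Nd3, a complex I subunit gene, had 428 to 969 counts per library and mt-Nd3 itself had 12 to 38, with no overlap over the 12 libraries. For mt-Co3 the copy averaged 23.2 CPM at 44 °C and 30.4 CPM at 37 °C, and the mitochondrial entry 16.3 CPM at 44 °C and 19.7 CPM at 37 °C. Outside the complete copies this turned round: mt-Co1 had at least 112290 counts in every library, and its partial copy had 91 to 146. Of mt-Co1, 1062 bases lie outside the copied part, so these counts cover different lengths.

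**Figure D2:**
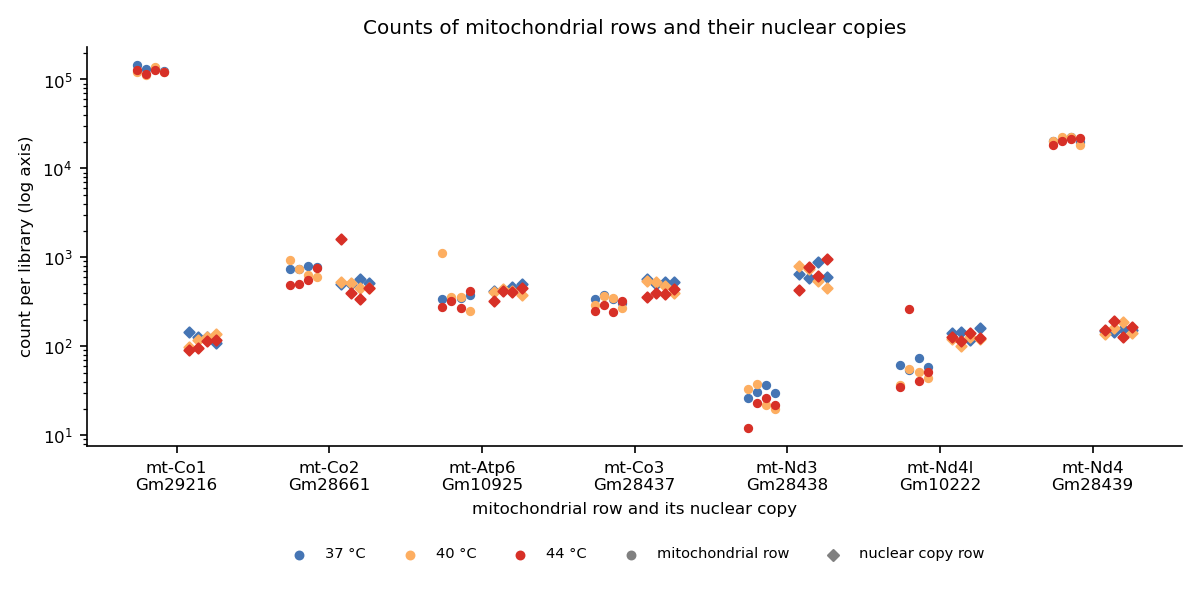
Counts per library on a log axis for 7 mitochondrial genes (circles) and their annotated copies on chromosome 1 (diamonds), coloured by temperature. The copy of mt-Nd3 sits at 428 to 969 counts, above mt-Nd3 at 12 to 38 counts in every library, whereas mt-Co1 and mt-Nd4, which are only partly copied, sit far above their copies.

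At 44 °C against 37 °C, 5 of the 27 mitochondrial genes tested were called, which is 18.5%, against 13.7% of all genes. The small-subunit rRNA gene mt-Rnr1 and the tRNA genes mt-Tc, mt-Tp and mt-Th fell, and the tRNA gene mt-Ty rose. None of the 12 protein-coding genes tested was called by edgeR, with 1 at an unadjusted p under 0.05 (mt-Co2), and DESeq2 called the same 5 genes and no protein-coding one. Without the filter on low counts mt-Co2 was called lower (adjusted p = 0.019). With the leading axis of within-group differences, described below, as a covariate, mt-Co1, mt-Co2, mt-Co3, mt-Nd1 and mt-Nd6 were called lower too. The median log2 fold change was −0.15 over the 27 genes and −0.00 over all genes tested. By kind it was −0.09 for the 12 protein-coding genes, −0.20 for the 2 rRNA genes and −0.17 for the 13 tRNA genes. Of the 27 genes, 4 were lower and 1 higher without overlap between the groups, where 9.13% of all genes were lower and 8.62% higher. These are the 5 called genes, and the same libraries gave their calls, so this is not separate evidence. The number of calls changed with single libraries. Leaving out 37 °C replicate 1 or 44 °C replicate 2 left 0 called. Leaving out 37 °C replicate 2, 3 or 4 or 44 °C replicate 4 left 2, and leaving out 44 °C replicate 1 or 3 left 3. Calls over all genes also moved from the 1975 of the full set, to 979 without 37 °C replicate 1 and 980 without 44 °C replicate 2, and all 5 genes kept their direction.

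The mitochondrial ribosome contains one rRNA in each subunit, 12S from mt-Rnr1 in the small and 16S from mt-Rnr2 in the large. The level of mt-Rnr1 (ENSMUSG00000064337, chromosome MT, 70 to 1024, plus strand) was 289, 249, 320 and 297 CPM at 44 °C, against 391, 344, 339 and 362 CPM at 37 °C. Every library at 44 °C lay below every library at 37 °C. It averaged 289 ± 29.6 CPM at 44 °C and 359 ± 23.8 CPM at 37 °C (SD, n = 4 each) and fell by 19.6%, with a log2 fold change of −0.32 ± 0.086 (SE, adjusted p = 0.0264). At 40 °C it had 322, 282, 278 and 352 CPM, reaching into the range at 37 °C (−0.22 ± 0.086, adjusted p = 0.823). Its call at 44 °C was lost without 37 °C replicate 1 (adjusted p = 0.0842) or 4 (0.0642) and without 44 °C replicate 2 (0.0843) or 4 (0.0505), with a range of 0.000124 to 0.0843 over its alternatives. Its log2 fold change without 1 library stayed between −0.37 and −0.25.

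The large-subunit rRNA gene mt-Rnr2 (chromosome MT, 1094 to 2675, plus strand) had 525, 545, 629 and 589 CPM at 44 °C, against 577, 602, 615 and 620 CPM at 37 °C. The groups overlapped, and the gene was not called (−0.08 ± 0.059, adjusted p = 0.403). The ratio of mt-Rnr1 to mt-Rnr2 counts within a library was 0.457 to 0.550 at 44 °C and 0.552 to 0.678 at 37 °C, with no overlap, and 0.511 to 0.597 at 40 °C. No test was made on this ratio, and mt-Rnr1, whose call is given above, is one side of it. Both rRNAs were measured after poly-T capture, so the values describe the captured part of each rRNA.

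Of the 22 tRNA genes, 13 had enough counts to test and 12 averaged at least 1 CPM. The genes are 59 to 75 bases long, and the libraries were selected for fragments of 370 to 420 bases, per the labels' protocols. Whether their counts come from uncut transcripts or from reads that reach in from a neighbour was not tested. The cysteine tRNA gene mt-Tc, the first of the sequences above, had 19.8, 20.02, 33.6 and 32.9 CPM at 44 °C, against 60.7, 47.6, 43.8 and 39.3 CPM at 37 °C. All 4 libraries at 44 °C lay below all 4 at 37 °C, and the gene fell by 44.5% (log2 fold change −0.85 ± 0.25, adjusted p = 0.0356). At 40 °C it had 58.2, 28.8, 24.3 and 33.6 CPM, a range that spans most of both other groups.

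The proline tRNA gene mt-Tp, at the far end of the gene order, had 27.1, 27.7, 32.4 and 33.8 CPM at 44 °C, against 38.3, 38.1, 39.5 and 36.8 CPM at 37 °C. Its libraries at 37 °C lay close together relative to its mean, and it fell by 20.7% (−0.34 ± 0.10, adjusted p = 0.0445). The histidine tRNA gene mt-Th, next to mt-Nd4, had 4.14, 4.06, 5.44 and 3.54 CPM at 44 °C, against 6.55, 7.03, 9.60 and 5.66 CPM at 37 °C. It fell by 40.4% (−0.75 ± 0.21, adjusted p = 0.0300), again with no overlap between the groups.

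The tyrosine tRNA gene mt-Ty moved the other way. It had 2.45, 3.64, 2.75 and 2.85 CPM at 44 °C, against 1.16, 2.30, 1.24 and 1.73 CPM at 37 °C. This rests on few reads, 42 to 60 counts per library at 44 °C and 21 to 38 at 37 °C, and gave a log2 fold change of 0.87 ± 0.27 (adjusted p = 0.0452). On the minus strand mt-Ty and mt-Tc are immediate neighbours, as their coordinates above show, and at 44 °C one rose and the other fell. The sources do not say if the counts are strand-specific. Reads of mt-Ty, mt-Tc and mt-Tp therefore cannot be told apart from those of the transcript opposite them.

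Each of the 4 tRNA calls was lost without 37 °C replicate 1 and without 44 °C replicate 2. The call of mt-Tc was also lost without 37 °C replicate 2 or 44 °C replicate 1, and ranged in adjusted p from 3.64e-05 to 0.113 over its alternatives. That of mt-Th was also lost without 37 °C replicates 2 or 3 or 44 °C replicate 4, with a range of 0.00296 to 0.0899. The call of mt-Tp was lost without any 1 of the 4 libraries at 37 °C, or without 44 °C replicates 1 or 3. For mt-Ty the further libraries were 37 °C replicates 3 and 4, 44 °C replicates 3 and 4 and 40 °C replicate 4. The log2 fold changes without 1 library kept their direction, at −0.98 to −0.72 for mt-Tc, −0.88 to −0.58 for mt-Th, −0.39 to −0.29 for mt-Tp and 0.73 to 1.09 for mt-Ty.

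**Figure D3:**
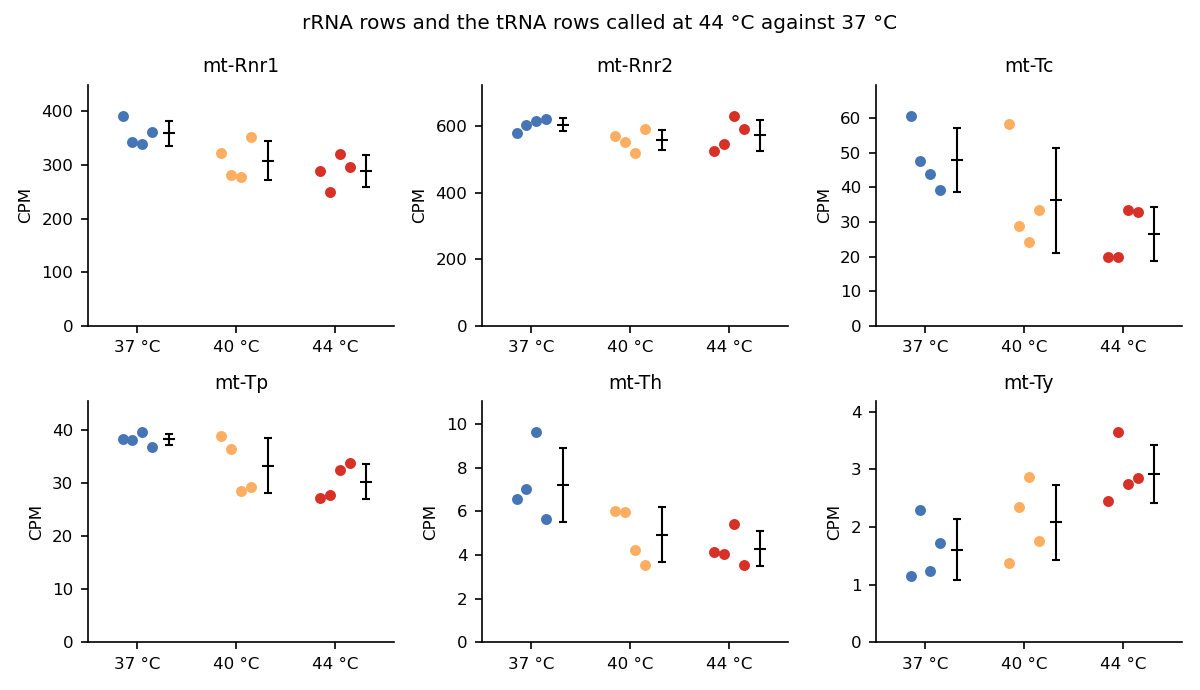
CPM per library of both rRNA genes and the 4 called tRNA genes at 37 °C, 40 °C and 44 °C, with each axis starting at 0; points are libraries, and the bar beside them is the mean ± SD (n = 4). At 44 °C mt-Rnr1, mt-Tc, mt-Tp and mt-Th lie below and mt-Ty above every library at 37 °C, whereas mt-Rnr2 overlaps.

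The other tRNA genes named by level did not pass the test. The leucine tRNA gene mt-Tl2 averaged 13.3 CPM at both 44 °C and 40 °C and 11.9 CPM at 37 °C, with 1 library, 44 °C replicate 2, at 21.2 CPM. The asparagine tRNA gene mt-Tn, the neighbour of mt-Tc on its other side, averaged 9.27 CPM at 44 °C and 12.8 CPM at 37 °C (−0.46 ± 0.24, adjusted p = 0.209). Those of leucine mt-Tl1 (0.14), glutamic acid mt-Te (0.35), serine mt-Ts2 (−0.39), tryptophan mt-Tw (0.00), threonine mt-Tt (−0.15) and isoleucine mt-Ti (−0.17) had adjusted p between 0.292 and 0.997 for 44 °C against 37 °C. The remaining 10 averaged under 1 CPM, and mt-Tf, mt-Td and mt-Tg had 0 counts in all 12 libraries, which allows up to 0.154 to 0.184 CPM per library. The summed tRNA genes took 0.00926% to 0.0127% of the counts at 44 °C and 0.0130% to 0.0156% at 37 °C, with no overlap. That sum follows mt-Tc and mt-Tp, the tRNA genes with most counts, and has no test of its own.

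Complex I, which takes electrons from NADH, has 7 mitochondrially encoded subunits. The level of mt-Nd1 was 1679, 2249, 2093 and 2297 CPM at 44 °C, against 1846, 2452, 2666 and 2313 CPM at 37 °C. The groups overlapped, and the log2 fold change was −0.16 ± 0.14 (adjusted p = 0.463). The level of mt-Nd2 was 1468, 1903, 1855 and 1917 CPM at 44 °C, against 1515, 1955, 2106 and 1837 CPM at 37 °C (−0.05 ± 0.12, adjusted p = 0.792). In mt-Nd4 the values were 1077, 1241, 1252 and 1258 CPM at 44 °C, against 1023, 1251, 1320 and 1185 CPM at 37 °C (0.02 ± 0.093, adjusted p = 0.934). Reads within its first 876 bases cannot be told apart from those of the copy Gm28439. The 44 °C values of mt-Nd4 lay inside the range at 37 °C, and those of mt-Nd2 reached just below it.

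The long gene mt-Nd5 had 1984, 2322, 2209 and 2400 CPM at 44 °C, against 2018, 2510, 2673 and 2337 CPM at 37 °C (−0.10 ± 0.096, adjusted p = 0.526). The gene mt-Nd6 is the only protein-coding gene on the minus strand and shares 14 bases with mt-Nd5. It had 454, 509, 510 and 525 CPM at 44 °C, against 471, 599, 605 and 563 CPM at 37 °C (−0.16 ± 0.099, adjusted p = 0.280). The sources do not say if the counts are strand-specific, and reads of mt-Nd6 and of the transcript opposite it cannot be told apart. Inside the copied stretch, mt-Nd3 averaged 1.22 CPM at 44 °C and 1.79 CPM at 37 °C (−0.55 ± 0.31, adjusted p = 0.246). There mt-Nd4l was at 2.04, 16.1, 2.40 and 2.97 CPM at 44 °C, so that 1 library sets its mean, against 3.12 to 4.36 CPM at 37 °C (adjusted p = 0.373). Without that library, 44 °C replicate 2, its log2 fold change was −0.53, against 0.71 with it.

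For complex III, which passes electrons to cytochrome c, mt-Cytb is the one mitochondrial subunit gene. It had 2155, 3322, 2750 and 3327 CPM at 44 °C, against 2183, 3085, 3314 and 2891 CPM at 37 °C. The log2 fold change was 0.01 ± 0.16, with a 95% interval of −0.32 to 0.34 (adjusted p = 0.973). Differences in either direction within that interval remain compatible with these libraries. The spread of mt-Cytb between libraries was the widest of the 7 protein-coding genes wholly or partly outside the copied stretch. Its highest library had 1.75 times as much as its lowest, against 1.14 times for mt-Co1.

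Complex IV, the cytochrome c oxidase, has its catalytic core from mt-Co1, mt-Co2 and mt-Co3. The level of mt-Co1 was 7454, 6922, 7468 and 6970 CPM at 44 °C, against 7302, 7854, 7907 and 7454 CPM at 37 °C. The groups overlapped, and the log2 fold change was −0.08 ± 0.041 with a 95% interval of −0.17 to 0.01 (adjusted p = 0.188). The entry mt-Co2 had 28.8, 30.1, 32.3 and 42.9 CPM at 44 °C, against 37.6, 44.4, 47.1 and 46.1 CPM at 37 °C (−0.38 ± 0.16, adjusted p = 0.121). Its copy Gm28661 had 1 library far from the others, 44 °C replicate 1 at 95.0 CPM, and averaged 41.2 CPM at 44 °C and 30.1 CPM at 37 °C.

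The entry mt-Co3 was at 14.7, 17.8, 14.2 and 18.5 CPM at 44 °C, against 17.4, 23.0, 20.2 and 18.2 CPM at 37 °C (−0.27 ± 0.14, adjusted p = 0.190). Its copy Gm28437 fell, with 21.2, 24.0, 22.5 and 25.1 CPM at 44 °C, against 28.7, 30.1, 31.4 and 31.6 CPM at 37 °C (−0.39 ± 0.11, adjusted p = 0.0371). Counts of the mitochondrial entry and its copy were also added together, a step chosen after seeing the data. The sum for mt-Co3 had a log2 fold change of −0.34 ± 0.11 (adjusted p = 0.0491), and the sums for the other 6 pairs had adjusted p between 0.186 and 0.971. Summed with the copy, mt-Co2 had a log2 fold change of 0.02 and mt-Nd3 of 0.04, against −0.38 and −0.55 for the mitochondrial entries alone. The copy of mt-Nd4l, Gm10222, was likewise added to the pairs after its values were seen.

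For the ATP synthase, mt-Atp6 and mt-Atp8 encode membrane subunits and overlap by 43 bases. The entry mt-Atp6 averaged 19.0 CPM at 44 °C and 20.1 CPM at 37 °C (−0.08 ± 0.37, adjusted p = 0.907). At 40 °C it had 67.5, 22.6, 18.5 and 14.2 CPM, where replicate 1 alone stands above every other library. The entry mt-Atp8 had 1 to 8 counts per library and was not tested.

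**Figure D4:**
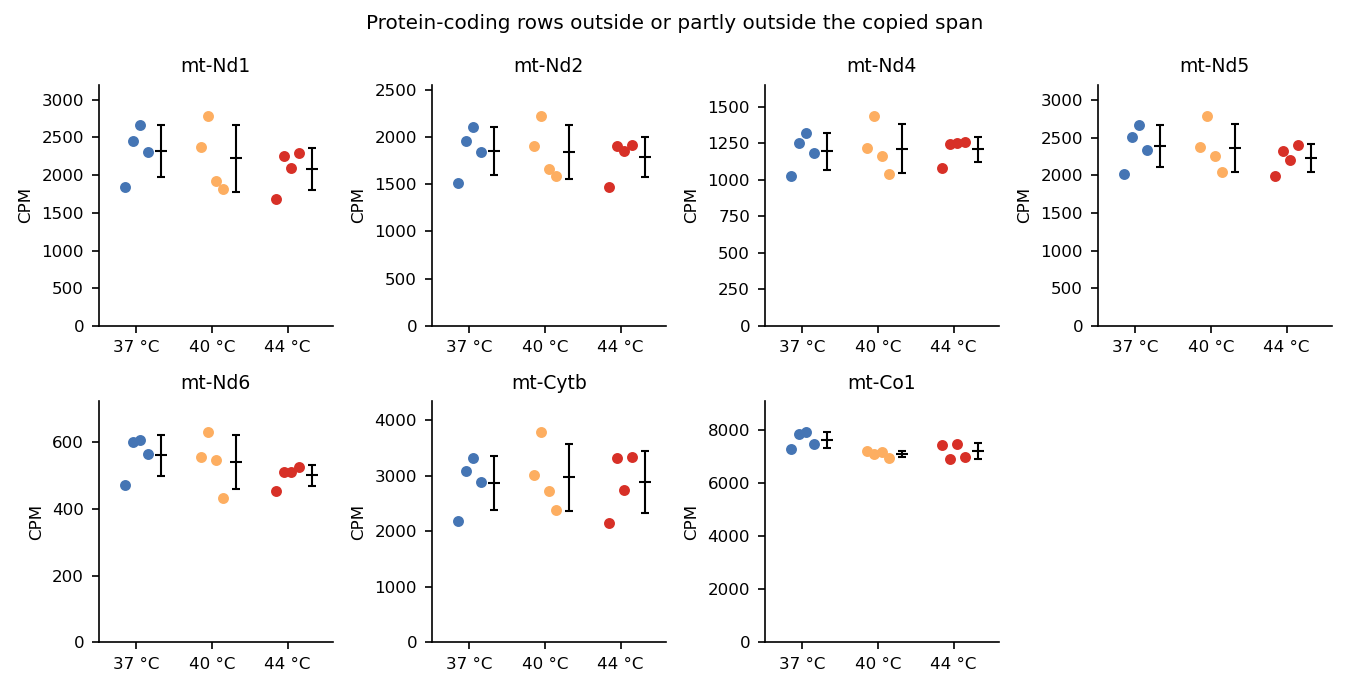
CPM per library of the 7 protein-coding genes wholly or partly outside the copied stretch at 37 °C, 40 °C and 44 °C, with each axis starting at 0; points are libraries and the bar is the mean ± SD (n = 4). The groups overlap for all 7 genes at 44 °C against 37 °C, and mt-Cytb spreads by 1.75 times over the 12 libraries, against 1.14 times for mt-Co1.

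Several protein-coding genes had their lowest values in the same libraries, a pattern noticed in the data. Of the 6 genes mt-Nd1, mt-Nd2, mt-Nd4, mt-Nd5, mt-Nd6 and mt-Cytb, all 6 had their lowest value at 37 °C in replicate 1, at 40 °C in replicate 4 and at 44 °C in replicate 1. The gene with most counts, mt-Co1, was lowest in the same libraries at 37 °C and 40 °C but not at 44 °C, where replicate 1 had 7454 CPM and the highest library 7468 CPM. The ratio of mt-Cytb to mt-Co1 counts was 0.299 in 37 °C replicate 1, 0.342 in 40 °C replicate 4 and 0.289 in 44 °C replicate 1. In 37 °C replicate 3, 40 °C replicate 2 and 44 °C replicate 2 it was 0.419, 0.532 and 0.480, each the highest of its group. The same 3 libraries with low mt-Cytb lay highest on the leading axis of within-group differences over the tested genes outside the mitochondrial genome. That axis held 29.7% of the variance inside the groups. There 37 °C replicate 1 lay at 1.12, 40 °C replicate 4 at 1.03 and 44 °C replicate 1 at 1.58. In 37 °C replicate 1 and 40 °C replicate 4 the low mRNA values went with the highest mt-Rnr1 value of the group, 391 and 352 CPM. In 44 °C replicate 1 they did not, since mt-Rnr1 was 289 CPM there and 320 CPM in replicate 3.

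At 40 °C against 37 °C, none of the 27 mitochondrial genes was called, as held for all genes (0% called). By edgeR 3 had an unadjusted p under 0.05, all lower, and DESeq2 called none of them. They were mt-Th (−0.55 ± 0.21), mt-Rnr1 (−0.22 ± 0.086) and mt-Co1 (−0.10 ± 0.041), each with an adjusted p of 0.823. For mt-Co1 the groups did not overlap, with 7203, 7105, 7156 and 6955 CPM at 40 °C, against 7302, 7854, 7907 and 7454 CPM at 37 °C. Groups that did not overlap were seen in 2.23% of all genes as lower and 1.61% as higher. It was the only member of the 27 with separate groups in that comparison, and the median log2 fold change of the 27 was −0.05.

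At 44 °C against 40 °C, none of the 27 was called by edgeR or DESeq2, and none had an unadjusted p under 0.05, where 5.03% of all genes were called (1.88% higher and 3.15% lower). No mitochondrial gene had groups that did not overlap, which 5.28% of all genes did as higher and 5.44% as lower. The median log2 fold change was −0.08, and the smallest adjusted p was 0.255, for mt-Co2 (33.5 ± 6.41 CPM at 44 °C and 42.5 ± 11.03 CPM at 40 °C). The 3 comparisons share libraries in pairs, so their values for one gene are not independent. For mt-Rnr1, mt-Tc, mt-Tp and mt-Th the mean at 40 °C lay between the means at 37 °C and 44 °C, and the same held for mt-Ty. These genes were picked by their difference between 37 °C and 44 °C, so this order cannot show a graded change.

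**Figure D5:**
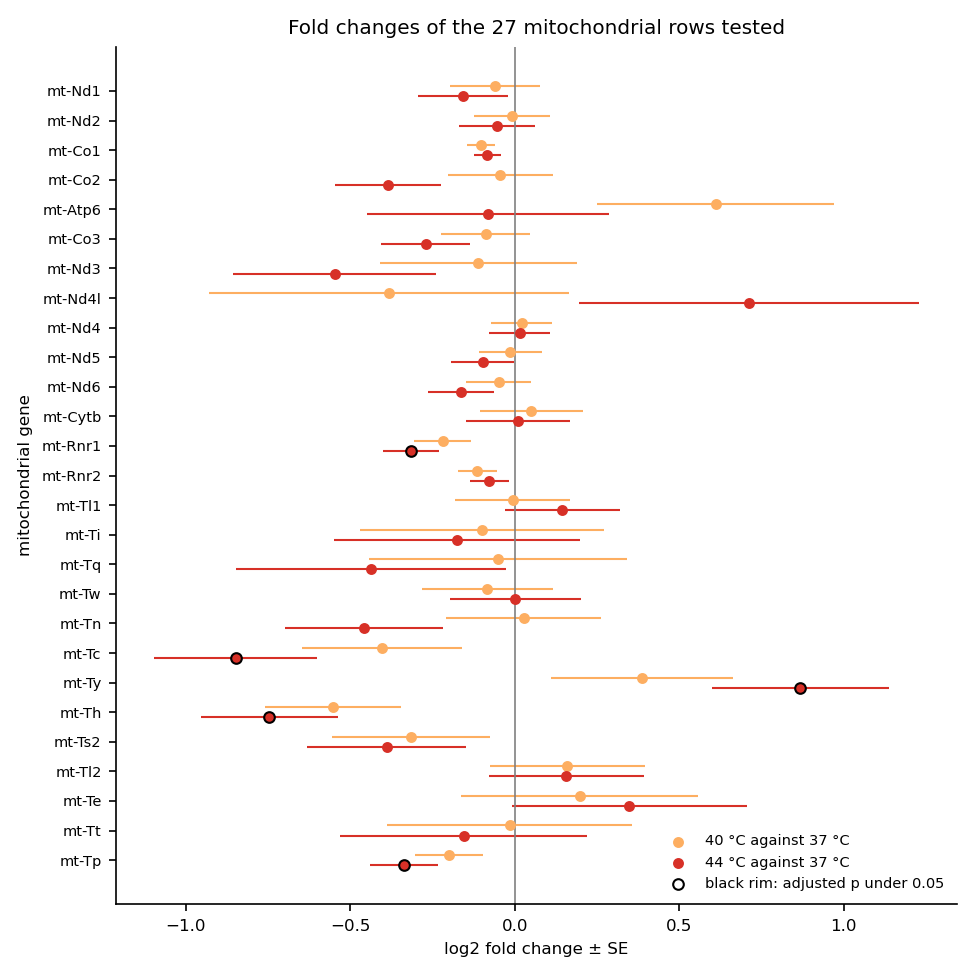
Log2 fold change ± SE (edgeR) of the 27 mitochondrial genes tested, for 40 °C against 37 °C and 44 °C against 37 °C, with protein-coding genes first, then rRNA and tRNA genes. Points with a black rim, mt-Rnr1, mt-Tc, mt-Tp, mt-Th and mt-Ty at 44 °C, had an adjusted p under 0.05; protein-coding genes wholly or partly outside the copied stretch lie between −0.16 and 0.05.

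Nuclear genes whose products act on mitochondrial DNA and RNA were read from the same fit at 44 °C against 37 °C, where 6.58% of all genes were called higher and 7.11% lower. For these genes and the nuclear subunits below, calls of single genes were not examined with libraries left out. Over all genes, leaving out 1 library gave 979 to 3322 calls, against 1975 in the full set. Of 11 genes of mitochondrial transcription, 2 rose and none fell, with a median of 0.14. Tfam, which packages mitochondrial DNA and starts its transcription, averaged 59.8 ± 6.76 CPM at 44 °C and 47.2 ± 2.18 CPM at 37 °C (0.34 ± 0.076, adjusted p = 0.0101). Top1mt, the mitochondrial topoisomerase gene, averaged 36.7 ± 2.46 CPM at 44 °C and 29.6 ± 2.73 CPM at 37 °C (0.31 ± 0.080, adjusted p = 0.0219). Of 10 replication genes the exonuclease gene Mgme1 rose (0.27 ± 0.080, adjusted p = 0.0355) and none fell.

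Of 25 genes of mitochondrial RNA processing and stability, 5 rose and none fell, with a median of 0.27. Supv3l1, the helicase of the RNA-degrading complex, averaged 42.0 ± 2.50 CPM at 44 °C and 32.6 ± 2.45 CPM at 37 °C (0.37 ± 0.084, adjusted p = 0.0118). The 3′ exonuclease gene Pde12 (0.35 ± 0.086, adjusted p = 0.0159) and the tRNA-modifying enzyme gene Trit1 (0.36 ± 0.097, adjusted p = 0.0265) rose as well. Of 12 translation factor genes the elongation factor gene Tufm rose (0.28 ± 0.073, adjusted p = 0.0202) and none fell. None of 8 regulators of mitochondrial biogenesis was called, and the smallest p was that of the coactivator gene Pprc1 (0.46 ± 0.16, adjusted p = 0.0702).

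The nuclear subunits of the respiratory complexes were read in the same way at 44 °C against 37 °C, where 13.7% of all genes were called. Of 36 complex I subunit genes 2 rose and 2 fell. Ndufa9 rose (84.9 ± 4.89 CPM at 44 °C and 69.9 ± 3.40 CPM at 37 °C, adjusted p = 0.00998), whereas Ndufa13 (−0.27, adjusted p = 0.0254) and Ndufa3 (−0.38, adjusted p = 0.0341) fell. Of 9 complex III genes Cyc1, the cytochrome c1 gene, rose (0.17 ± 0.048, adjusted p = 0.0279). None of 11 complex IV genes was called, with the smallest p for Cox8a (−0.16, adjusted p = 0.104), and of 14 ATP synthase genes Atp5e fell (−0.29 ± 0.072, adjusted p = 0.0165).

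No gene of these 9 lists was called at 40 °C against 37 °C, as held for all genes (0% called). At 44 °C against 40 °C, 5.03% of all genes were called, and of the 36 complex I genes 1 rose and 1 fell. Ndufa9 rose (0.25, adjusted p = 0.0300) and Ndufa3 fell (−0.44, adjusted p = 0.0305), and no other gene of the lists was called.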

How the data were processed

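The values used are raw counts per gene, deposited by the authors as 1 table with 1 column per library and no pooling. The submitters' processing notes list HISAT2 2.0.5, featureCounts 1.5.0-p3, StringTie 1.3.3b, fastp and the build mm10. The roles and order of these tools, any use of strand and the treatment of reads with several sources are not given in the sources used here. Genes were kept by filterByExpr (minimum count 10, minimum total 15), which left 14424 genes and at least 99.86% of each library's counts. One edgeR 4.0.16 quasi-likelihood model (R 4.3.3) was fitted to all 12 libraries with TMM scaling, and the 3 two-sided contrasts were adjusted by the Benjamini-Hochberg method. DESeq2 1.42.0 was an alternative. Intervals of fold changes are at 95%, and the bound for a count of 0 is 3 counts over the unscaled library total. Ratios, shares and marker sums use unscaled counts. Bounds cover counting error only.

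Within groups, the chi-square statistic per gene between libraries was 2.88 to 21.4, so none was counted as a copy of another. Nuclear copies were aligned to mitochondrial genes from the GENCODE M21 transcripts. Of 167 symbols in 14 lists, 164 matched the table. All 37 genes are accounted for: every protein-coding and rRNA gene and each tRNA gene averaging at least 1 CPM is named, and up to 3 called genes per list, by smallest p. The members and lists were chosen with earlier results of these data known. The fitting steps were checked on simulated data with independent libraries and no shared within-group axis. That check does not bear on how stable the calls above are. No protein sequence and no genome sequence was used here.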

Additional observations from a re-analysis of the deposited data

Results flagged for a closer look

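In 8 of 102 groups of 4 libraries examined over the mitochondrial genes and their nuclear copies, 1 library stood far from the other 3, by Dixon's criterion at 95%. Chance gives about 1 in 20 groups. For mt-Nd2, 44 °C replicate 1 had 1468 CPM and the others 1855 to 1917. For mt-Nd4 the same library had 1077 CPM and the others 1241 to 1258. It was also low in mt-Nd1, mt-Nd5, mt-Nd6 and mt-Cytb and highest on the within-group axis (1.58). For Gm28661, the copy of mt-Co2, that library was high, at 95.0 CPM against 19.9 to 25.6. For mt-Atp6, 40 °C replicate 1 had 67.5 CPM and the others 14.2 to 22.6. For mt-Nd4l, 44 °C replicate 2 had 16.1 CPM and the others 2.04 to 2.97. The isoleucine tRNA gene mt-Ti had 2.003 CPM in 37 °C replicate 3, with 0.705 to 0.909 in the others, and 1.65 CPM in 40 °C replicate 2, with 0.774 to 0.912 in the others. Gm28438, the copy of mt-Nd3, had 52.8 CPM in 37 °C replicate 3 and 33.1 to 35.5 in the others. What sets these libraries apart was not tested.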

How the results depend on the processing

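The 5 calls at 44 °C against 37 °C held with library totals, with DESeq2 size factors, with totals outside the mitochondrial genome, with the 2 groups alone and with DESeq2. No low-count filter and summing each gene with its nuclear copy gave 6 each, and a threshold of 0.01 gave 0. Leaving out 1 library gave 0 to 5 of these calls. Correlations between libraries of different groups were −0.279 to 0.448 over 12 pairs with the same replicate number (median 0.0697). Over 36 pairs with other numbers they were −0.484 to 0.391 (median −0.00588). These overlapping ranges cannot decide whether the replicate numbers pair the libraries. With the replicate block 4 remained, since mt-Tp was lost (adjusted p = 0.0544), and 2557 of all genes were called. With the leading within-group axis as a covariate, the counts were 10 mitochondrial genes and 5035 of all genes, 2 and 595 for 40 °C against 37 °C, and 1 and 3215 for 44 °C against 40 °C. That covariate is built from the libraries' own deviations from their group means, so it removes spread and leaves the group differences. For all genes, leaving out 1 library gave 979 to 3322 calls where 1975 were called for 44 °C against 37 °C, 0 to 1 where 0 were called for 40 °C against 37 °C, and 394 to 1261 where 725 were called for 44 °C against 40 °C. For 40 °C against 37 °C, no filter gave 13 and DESeq2 4. For 44 °C against 40 °C, DESeq2 gave 1220, the 2 groups alone 334, and no filter 2 mitochondrial calls (mt-Atp6, mt-Nd4l). Library totals without TMM turned the split of those 725, 271 higher and 454 lower, to 394 higher and 355 lower. The median of all genes moved by −0.0211 to 0.0209 in log2 under the other scalings. No called value changed sign. Of 547 alternative values of single genes for 44 °C against 37 °C, 28 lost the call and 7 gained it. The other 512 did neither, and 22 values of uncalled genes changed sign. Depth limits the genes listed at 0 or a few counts.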
